A study of Mus musculus with 6 samples.

Results

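The genes described here are 44 genes of the endoplasmic reticulum (ER) protein folding machinery, of the unfolded protein response (UPR) that controls it, and of the channel through which new proteins enter the ER. They were taken by gene symbol from a list drawn up with earlier results of these data known, with no threshold on measured values, and all 44 were found among the 20140 genes of the deposited count table. They fall into 16 chaperones and folding enzymes, 10 stress sensors and stress-induced factors, 8 genes of ER-associated degradation, and 10 genes of the translocon and of export. All 44 passed the filter on low counts that left 16370 genes to be tested. Whole-liver RNA was measured in 6 mice on day 21, with 2 mice in each of 3 groups. In the intra-C and intra-S groups, mice carried CT26, a mouse colon carcinoma line from BALB/c mice. The sham group, labelled control, received PBS in place of tumor cells. The labels do not spell out intra-C and intra-S, and from the study's account of its models they were read as CT26 cells placed in the cecum, whose livers were taken at a premetastatic time, and CT26 cells injected into the spleen, from which they seed the liver. The study gives BALB/c as the strain of both models, the labels give no age, and the methods give only a span of ages at purchase for all tumor models. The tumor, its route and the operation differed together between groups, and the intra-S livers can hold tumor cells. The replicates are labelled only by number, so that p-values measure the spread between these livers.

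The counts per liver summed to between 32838321 and 43368309, and a count of 0 allows up to 0.0679 to 0.0928 CPM. CPM values are counts relative to library size after TMM scaling, which corrects for a few very abundant genes taking up reads. The hepatocyte marker Alb stood at 84369 to 156594 CPM, and all 8 hepatocyte markers were detected. The 8 had a median log2 difference from sham of 0.80 in intra-C and 0.43 in intra-S livers, with 6 and 4 of them above both sham livers. By edgeR, Apob was called higher in intra-C and Trf and Serpina1c higher in intra-S livers. Over all tested genes, 34.4% had both intra-C livers and 30.4% both intra-S livers above both sham livers. EdgeR called 4.92% and 6.78% of all tested genes higher, the background for the marker counts that follow. Markers of other cells moved with the groups: the 10 neutrophil markers summed to 2.51 and 3.67 CPM in sham, 279 and 629 in intra-C and 1069.5 and 423 in intra-S livers, with S100a9 the most abundant. The 9 monocyte and macrophage markers, led by Clec4f, summed to 132 and 127, 537 and 691, and 358 and 647 CPM. The 6 erythroid markers, led by Hbb-bs, summed to 206 and 363, 372 and 236, and 1533 and 1077 CPM. The 7 measured plasma cell markers, a cell type rich in ER, summed to 4.75 and 7.31, 9.5 and 9.37, and 7.23 and 16.2 CPM, and none of the 5 tested was called by edgeR or DESeq2. The 6 endothelial markers, led by Clec4g, summed to 79.8 and 89.1, 225 and 240.2, and 334 and 199 CPM, with all 6 above both sham livers in each tumor group and 3 and 4 called by edgeR. The 5 markers of dividing cells, led by Mki67, summed to 14.3 and 8.35, 24.9 and 32.5, and 74.9 and 62.3 CPM, and edgeR called 1 and 4 of them higher. Of the other lists, edgeR called 3 fibroblast and stellate markers and 1 cholangiocyte marker higher in intra-S livers, and no marker of B cells, of T and NK cells or of exocrine pancreas. No marker of the 12 lists in the count table was at 0 in every liver. In bulk liver, fewer cells of a type and less RNA per cell cannot be told apart, and the part of these cells in the results below was not tested. The 2 intra-S livers stood apart from each other, with a median absolute log2 difference of 0.54 over all tested genes against 0.21 between the sham and 0.29 between the intra-C livers. Intra-S results are therefore also given per liver.

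Hepatocytes secrete most plasma proteins, and each of these enters the ER through the Sec61 channel, is folded by chaperones such as BiP (Hspa5) and by disulfide isomerases, and leaves in COPII vesicles. Proteins that fail to fold are drawn back to the cytosol and degraded. The membrane sensors IRE1 (Ern1), PERK (Eif2ak3) and ATF6 watch over folding. IRE1 splices Xbp1 messenger RNA, ATF6 is cut to release a transcription factor, and both raise chaperone and degradation genes through the ER stress element (ERSE) of their promoters. PERK slows translation and raises Atf4, which acts on amino acid and redox genes such as Asns and Chac1 through C/EBP-ATF response elements (CARE); other kinases of the same pathway answer lack of amino acids or heme.

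The promoter sequences of RefSeq (GRCm38.p6, the assembly also named mm10), from 250 bases before to 50 after the annotated start, were found for 37 of the 44 genes. They were searched on both strands for fixed letters. The ERSE (CCAAT, then 9 bases of any kind, then CCACG) was present in 9 of the 37 genes and in 0.119% of all 32851 promoters. The 9 were 7 chaperones and the degradation genes Derl3 and Syvn1, and none was a stress sensor or factor. Since the genes were listed as known members of this response, the share is a description. The 10 ERSE matches are shown because 7 chaperones hold the element, while 6 other chaperones with a promoter sequence do not. Each reads 5′ to 3′ along the strand that holds CCAAT, with the fixed letters in capitals.
Calr, chr8:84847075-84847093, strand opposite to the gene: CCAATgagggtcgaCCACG
Canx, chr11:50325800-50325818, same strand as the gene: CCAATcaccacgctCCACG
Creld2, chr15:88819520-88819538, strand opposite to the gene: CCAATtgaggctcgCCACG
Derl3, chr10:75893242-75893260, strand opposite to the gene: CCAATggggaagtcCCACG
Dnajc3, chr14:118937827-118937845, same strand as the gene: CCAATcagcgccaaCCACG
Hsp90b1, chr10:86705533-86705551, strand opposite to the gene: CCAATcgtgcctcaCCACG
Hsp90b1, chr10:86705638-86705656, same strand as the gene: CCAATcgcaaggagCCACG
Hspa5, chr2:34772025-34772043, same strand as the gene: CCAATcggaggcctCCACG
Pdia6, chr12:17266491-17266509, same strand as the gene: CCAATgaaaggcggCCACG
Syvn1, chr19:6046532-6046550, same strand as the gene: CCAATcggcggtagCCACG

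A second form, the ERSE-II (ATTGG, 1 base of any kind, then CCACG), was in 2 of the 37 genes and 0.0365% of all promoters. Dnajb11 and Herpud1 held it.
Dnajb11, chr16:22857852-22857862: ATTGGcCCACG
Herpud1, chr8:94386377-94386387: ATTGGgCCACG
The UPR element (TGACGTGG or TGACGTGA) was in Hspa5 and Sec24d and in 1.12% of all promoters. The Sec24d window belongs to a start 2695 bases inside the gene, counted from its outermost annotated start. The CARE core (TGATGCAA) was in Chac1 and Herpud1 and in 0.895% of all promoters. With any base allowed at its sixth position, a form added after the data were seen that includes the core, it was also in Asns and Trib3, and in 3.97% of all promoters. The short piece CCACG, which the ERSE, the ERSE-II and some UPR elements contain, was in 28 of the 37 genes and in 32.8% of all promoters.

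The 250 bases before the start are printed for the 3 genes that passed the test against sham livers below, and for Hspa5, the best known target of the response. Capitals mark an ERSE or UPR element in Hspa5, and the CARE core or its wider form in Chac1 and Asns. A match on the opposite strand appears as its reverse complement, as for Chac1. Ern1 held none of these elements, and its sequence is in lower case throughout.
Hspa5, chr2:34771840-34772089, plus strand: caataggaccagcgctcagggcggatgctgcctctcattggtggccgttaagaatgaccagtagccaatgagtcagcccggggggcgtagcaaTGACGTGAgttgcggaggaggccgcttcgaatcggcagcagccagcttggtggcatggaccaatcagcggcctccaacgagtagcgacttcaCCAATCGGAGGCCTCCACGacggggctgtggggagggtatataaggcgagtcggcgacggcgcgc
Ern1, chr11:106487797-106488046, minus strand: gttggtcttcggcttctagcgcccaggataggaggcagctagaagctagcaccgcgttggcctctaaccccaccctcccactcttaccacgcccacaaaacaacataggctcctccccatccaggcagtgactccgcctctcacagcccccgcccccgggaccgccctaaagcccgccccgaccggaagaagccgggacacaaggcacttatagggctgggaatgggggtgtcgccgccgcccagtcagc
Chac1, chr2:119350992-119351241, plus strand: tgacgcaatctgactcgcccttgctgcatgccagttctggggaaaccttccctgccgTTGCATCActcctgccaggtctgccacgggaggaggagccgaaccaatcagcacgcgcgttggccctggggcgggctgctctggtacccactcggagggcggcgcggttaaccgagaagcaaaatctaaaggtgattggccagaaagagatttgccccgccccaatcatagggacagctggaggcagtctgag
Asns, chr6:7693210-7693459, minus strand: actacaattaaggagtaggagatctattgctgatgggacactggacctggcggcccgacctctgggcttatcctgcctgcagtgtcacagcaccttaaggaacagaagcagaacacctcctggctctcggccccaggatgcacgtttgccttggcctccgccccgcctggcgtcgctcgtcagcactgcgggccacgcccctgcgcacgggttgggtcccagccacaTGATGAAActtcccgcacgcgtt

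**Figure D1:**
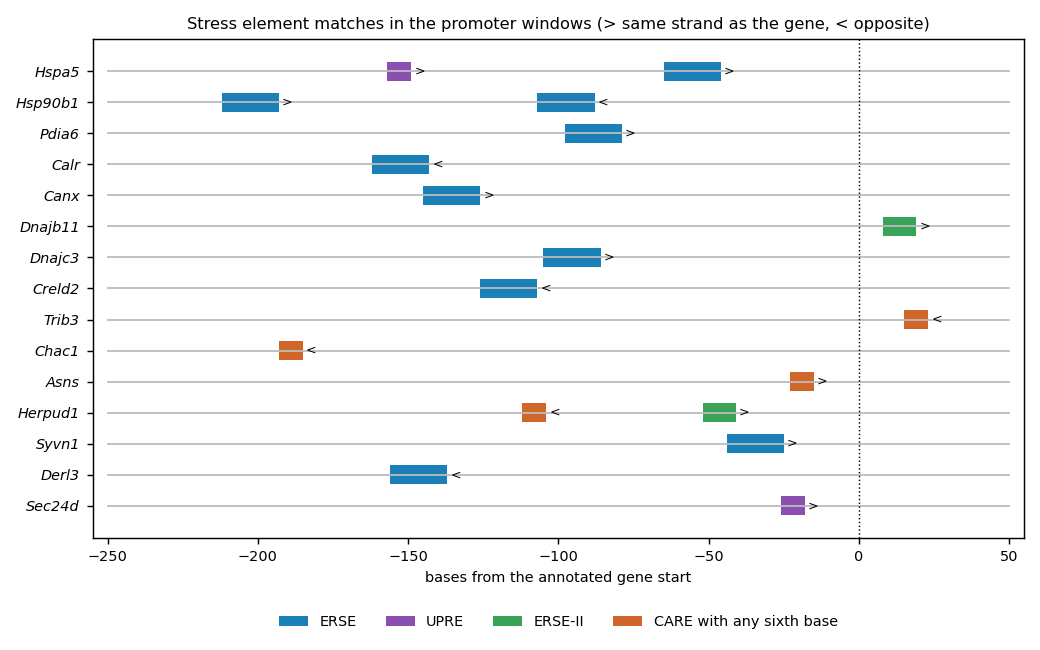
Positions of stress element matches in the promoter windows of the 15 genes that hold one, in bases from the annotated start of each window (x axis, for Sec24d a start inside the gene), 1 line per gene; bars are matches coloured by element, and the signs > and < give the strand. The ERSE matches of the 7 chaperones lie between 212 and 47 bases before the start.

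Levels between genes were compared per length, in the deposited TPM, which divide counts by gene length and scale each liver to the same total. In sham livers 18 of the 44 genes averaged over 100 TPM. The chaperones led, with Calr, the calcium-binding lectin chaperone calreticulin, at 718 and 723 TPM. Hsp90b1, the ER form of HSP90 called GRP94, stood at 664 and 717 TPM, and the disulfide isomerase P4hb at 619 and 589.8 TPM. This order held in both sham livers, but Hsp90b1 in liver 2 lay as high as Calr in liver 1, so that these neighbours did not differ beyond their spread. Among the chaperones, Hspa5 followed at 504 and 429 TPM. The degradation adaptor Herpud1 had a higher sham mean, 518 against 466 TPM, but its sham livers lay far apart, at 659.5 and 376 TPM. The sensors lay far lower, at 11.2 and 10.8 TPM for Atf6, 6.02 and 4.6 TPM for Ern1 and 5.27 and 4.05 TPM for Eif2ak3. Of the 10 sensors and factors, Creb3l3, a membrane-bound liver factor related to ATF6, at 226 and 242 TPM, and Xbp1, at 116 and 111 TPM, averaged over 100 TPM. The 7 genes under 10 TPM were Ern1, Eif2ak3, Ddit3, Trib3, Chac1, Asns and Derl3.

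In intra-C livers, all 16 chaperones stood higher in both livers than in both sham livers. No single chaperone passed the test over all genes, in which the adjusted p of the 16 ranged from 0.0903 to 0.564. Over all tested genes, 34.4% lay above both sham livers in this way and 34% below. The fitted differences ran from 1.26-fold for Pdia3 to 1.96-fold for Sdf2l1. Their median log2 fold change was 0.63, against 0.01 over all tested genes and 0.80 for the 8 hepatocyte markers. Mitochondrial transcripts took 5.60% and 5.34% of the counts in sham and 2.93% and 2.45% in intra-C livers, and their part in this difference was not tested. The summed level of the 16 was 4189 and 3999.7 TPM in sham, and 5071 and 5749 TPM in intra-C livers.

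Hspa5, or BiP, the HSP70 that holds unfolded chains and keeps the sensors inactive, measured 585 and 499 CPM in sham, 894 and 957 in intra-C and 727 and 1008 in intra-S livers. All 4 livers of tumor-bearing mice thus exceeded the sham livers. The log2 fold change in intra-C was 0.77 ± 0.24 (SE), with an adjusted p of 0.106 by edgeR. Dnajc3, a cochaperone of BiP that also inhibits PERK, measured 206 and 184 CPM in sham, 331 and 373 in intra-C and 197 and 286 in intra-S livers. Its intra-C log2 fold change was 0.85 ± 0.25 (SE) at an adjusted p of 0.0903, the lowest among the chaperones. Sdf2l1, which works with BiP and its J-protein partners, had the largest difference of the group, 0.97 ± 0.51 (SE) on the log2 scale. It measured 23.7 and 19.7 CPM in sham, 41 and 44.2 in intra-C and 11.6 and 39.5 in intra-S livers, and its intra-S livers lay on either side of the sham livers.

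The lectin chaperones, which hold glycoproteins, were Calr at 619.5 and 625 CPM in sham and 949.9 and 1068 CPM in intra-C livers, and Canx at 357 and 361 and 456 and 485 CPM. Hsp90b1 measured 814 and 882 CPM in sham and 1285 and 1341 CPM in intra-C livers. Among the disulfide isomerases, the log2 differences were 0.72 for Pdia4, 0.61 for Pdia6, 0.38 for P4hb and 0.33 for Pdia3. The J-proteins that bring clients to BiP came to 0.61 for Dnajb9 and 0.49 for Dnajb11. Hyou1, which exchanges nucleotide on BiP, came to 0.70, and Hspa13, an HSP70 relative, to 0.89. The small secreted or ER-held stress proteins Manf and Creld2 came to 0.42 and 0.62. The 7 chaperones with an ERSE had log2 differences from 0.39 to 0.85 in intra-C livers. The 6 chaperones with a promoter but no ERSE, among them Dnajb11 with an ERSE-II, ran from 0.33 to 0.97, so that the 2 sets overlapped. The degradation genes with an ERSE, Derl3 and Syvn1, came to 0.26 and 0.32.

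How many chaperones passed the test depended on the livers in the fit. In a fit of the intra-C and sham livers alone, 14 of the 16 chaperones were higher, at adjusted p from 0.00501 to 0.0459, and Pdia3 and Creld2 did not pass. Over the 44 genes that fit called 22 higher and 0 lower, while it called 16.3% of its 15649 tested genes higher and 14.2% lower. The 22 were the 14 chaperones, the sensors and factors Xbp1, Atf4, Atf6, Ern1, Eif2ak3, Chac1 and Asns, and the translocon-associated Ssr3. In that fit Hspa5 had a log2 fold change of 0.77 and an adjusted p of 0.00781. DESeq2 with all 6 livers called 6 of the 44 higher, namely Hspa5, Dnajc3, Atf6, Ern1, Chac1 and Asns, against 10.4% of all tested genes.

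**Figure D2:**
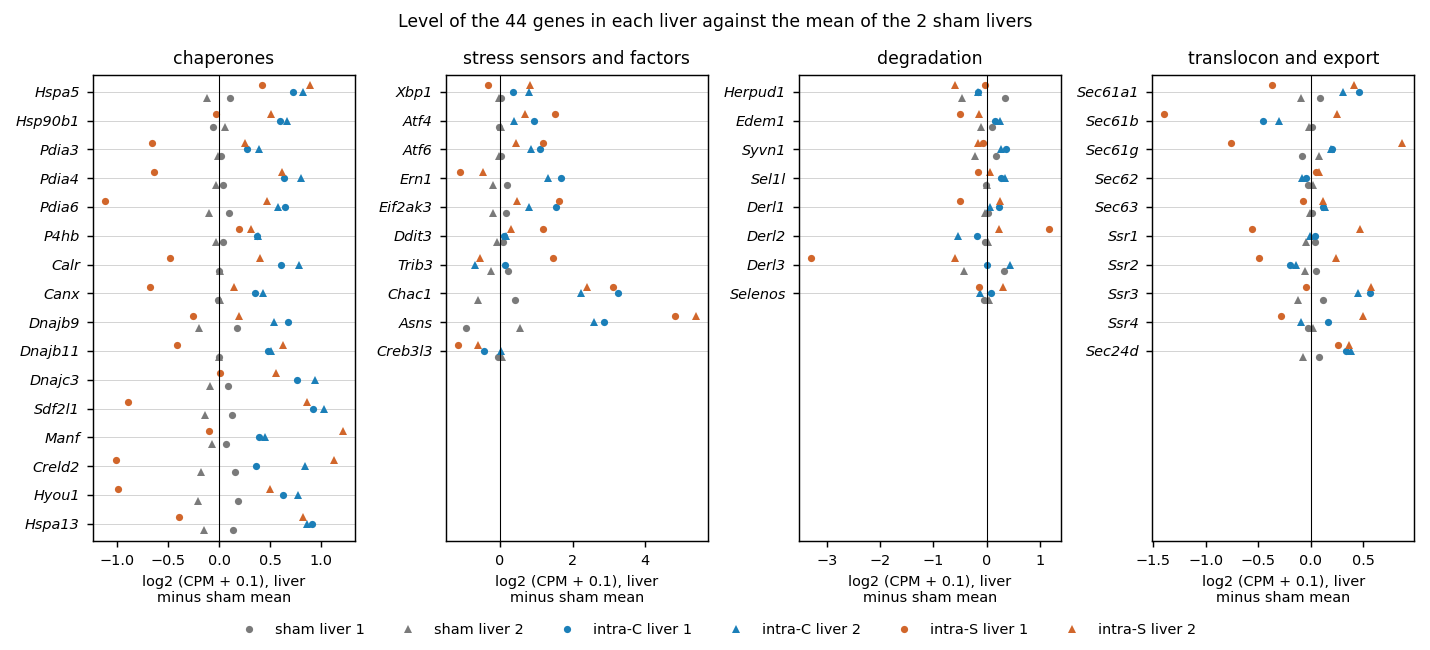
Level of each of the 44 genes in each liver on the log2 (CPM + 0.1) scale, minus the value of the sham mean (x axis), in 4 panels by role with 1 row per gene; colours are groups, circles and triangles livers 1 and 2. All 16 chaperones have both intra-C livers to the right of both sham livers, and the 2 intra-S livers apart.

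In intra-S livers the chaperones followed no common direction, and the 2 livers lay on different sides of sham. In liver 2 all 16 chaperones exceeded both sham livers, and in liver 1 12 of the 16 lay below both. The exceptions in liver 1 were Hspa5 and P4hb, which lay above both sham livers, and Hsp90b1 and Dnajc3, which lay between them. Over all tested genes, 42.7% exceeded both sham livers in liver 2 and 43.8% lay below both in liver 1. Only Hspa5 and P4hb therefore stood above the sham livers in both, against a background of 30.4% of genes above and 30% below. The fitted log2 differences ran from -0.21 for Canx to 0.70 for Manf with a median of 0.22. None passed the test by edgeR, with adjusted p from 0.123 to 0.975, nor by DESeq2, and 1 had an unadjusted p under 0.05 by edgeR.

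Manf was one of the chaperones split in this way, at 110.4 and 101 CPM in sham livers against 98.3 and 245 CPM in intra-S livers 1 and 2. For Pdia6 the sham values of 299 and 260.1 CPM stood between the intra-S values of 128 and 387 CPM. Calr measured 619.5 and 625 CPM in sham and 445 and 819.6 CPM in intra-S livers. The number of chaperones with a positive fitted difference was 11 of the 16 after TMM scaling, 7 with library size alone and 2 on the log2(TPM + 1) scale, while the median of all genes itself moved from 0.04 to -0.23 and -0.15. Relative to the median of all genes, the chaperone median was 0.18 after TMM scaling, 0.20 with library size alone and -0.11 on the log2(TPM + 1) scale. For intra-C livers all 16 chaperones stayed positive under every setting that was run. By summed TPM the chaperones came to 2830.3 and 5063 in the intra-S livers.

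The sensors and induced factors held every gene that passed the test. In intra-C livers 2 of the 44 genes were called higher, Ern1 and Chac1, and 0 lower, against 4.92% of all tested genes called higher and 2.38% lower. In intra-S livers 2 were called higher, Chac1 and Asns, and 0 lower, against 6.78% and 3.95%. The number of called genes was thus near the background share in both. Of the 10 sensors and factors, 8 had both intra-C livers above both sham livers, against 34.4% of all tested genes, and 6 had both intra-S livers above and 2 both below, against 30.4% and 30%.

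Ern1, at chr11:106397620-106487796, encodes IRE1, the kinase and endonuclease that splices Xbp1. It measured 10.6 and 8.15 CPM in sham, 30.5 and 23.5 in intra-C and 4.32 and 6.7 in intra-S livers. The 3 groups did not overlap, with intra-C livers highest and intra-S livers lowest. The log2 fold change was 1.52 ± 0.30 (SE) in intra-C livers, a 2.87-fold rise, at an adjusted p of 0.0367. In intra-S livers it was -0.77 ± 0.30 (SE), at an adjusted p of 0.144. The intra-C call was lost in 4 of the 11 settings that kept all livers, among them scaling by library size alone and both TPM scales.

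Xbp1, the message that IRE1 splices, measured 116 and 111 CPM in sham, 144 and 199 in intra-C and 90 and 203 in intra-S livers. Both intra-C livers lay above the sham livers, and the log2 difference of 0.60 ± 0.39 (SE) did not pass the test, at an adjusted p of 0.375. Gene counts cannot show the spliced form. Atf6 measured 40.3 and 39.2 CPM in sham, 85.8 and 71.4 in intra-C and 90.9 and 53.8 in intra-S livers, so that all 4 livers of tumor-bearing mice exceeded the sham livers. Its log2 differences were 0.98 ± 0.29 (SE) and 0.86 ± 0.28 (SE), at adjusted p of 0.0890 and 0.102. Creb3l3, also known as CREBH, a factor made active by cleavage that drives hepcidin and lipid genes in liver, went the other way in intra-S livers. It measured 229.7 and 247 CPM in sham, 176 and 241 in intra-C and 106 and 157 in intra-S livers, with both intra-S livers below the sham livers and the intra-C livers overlapping them. Its intra-S log2 difference was -0.86 ± 0.27 (SE), at an adjusted p of 0.0952 by edgeR and 0.0355 by DESeq2, which called 8.95% of all genes lower.

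On the PERK branch, Eif2ak3 measured 11.4 and 8.78 CPM in sham, 29.5 and 17.7 in intra-C and 31.4 and 14 in intra-S livers. All 4 livers of tumor-bearing mice lay above the sham livers, and within each tumor group liver 1 was higher than liver 2. The log2 differences were 1.23 ± 0.44 (SE) and 1.17 ± 0.44 (SE), with adjusted p of 0.136 and 0.134. Atf4, the factor whose translation PERK raises, measured 46.7 and 48.8 CPM in sham, 91.3 and 62.5 in intra-C and 136 and 76.3 in intra-S livers. It was highest in intra-S liver 1. The intra-S log2 difference was 1.15 ± 0.33 (SE), at an adjusted p of 0.0744 by edgeR and 0.0172 by DESeq2. DESeq2 called 3 of the 44 genes higher in intra-S livers, Atf4, Chac1 and Asns, against 12.6% of all genes.

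Chac1, at chr2:119351242-119354326, encodes an enzyme that degrades glutathione and is a target of Atf4. It was called in both tumor groups. It measured 2.66 and 1.27 CPM in sham, 19.5 and 9.59 in intra-C and 17.8 and 10.8 in intra-S livers, and the sham livers did not overlap either group. The log2 fold changes were 2.89 ± 0.53 (SE) and 2.87 ± 0.53 (SE), or 7.42-fold and 7.29-fold, at adjusted p of 0.0316 and 0.0253. Both comparisons use the same sham livers. With 1 liver left out the log2 fold change ran from 2.29, without intra-C liver 1, to 3.52, without sham liver 1, in intra-C livers. In intra-S livers it ran from 2.42 without sham liver 2 to 3.50 without sham liver 1. Of 11 settings that kept all livers of a comparison, 11 kept the intra-C call and 10 the intra-S call.

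Asns, at chr6:7675165-7693209, encodes asparagine synthetase. The sham livers held 0 and 8 counts, the intra-C livers 51 and 34, and the intra-S livers 183 and 325. In CPM these were 0 and 0.181, 1.3 and 1.05 and 5.34 and 7.97, so that the 3 groups did not overlap. The intra-S log2 fold change was 6.11 ± 0.93 (SE) at an adjusted p of 0.0156, and the intra-C value 3.62 ± 0.91 (SE) at 0.0650. With so few sham counts the size of both depends on the small count that the fit adds, and the CPM values are the safer guide. Without sham liver 2, which held all 8 sham counts, the fitted values were 10.96 and 8.47, and without sham liver 1 they were 5.18 and 2.68. A filter asking for 10 counts in every liver removed the gene from the test.

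The 2 remaining factors are Ddit3, which encodes the death-linked factor CHOP, and Trib3, a pseudokinase that CHOP and Atf4 raise. Ddit3 measured 6.7 and 5.95 CPM in sham, 6.82 and 7.12 in intra-C and 14.6 and 7.88 in intra-S livers. Both intra-S livers lay above the sham livers, most of all liver 1, and the log2 difference of 0.82 ± 0.33 (SE) had an adjusted p of 0.154. Trib3 measured 6.85 and 4.98 CPM in sham, 6.57 and 3.65 in intra-C and 16.5 and 4.0 in intra-S livers, so that its level stood out in intra-S liver 1 alone, and neither group differed from sham beyond the spread.

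**Figure D3:**
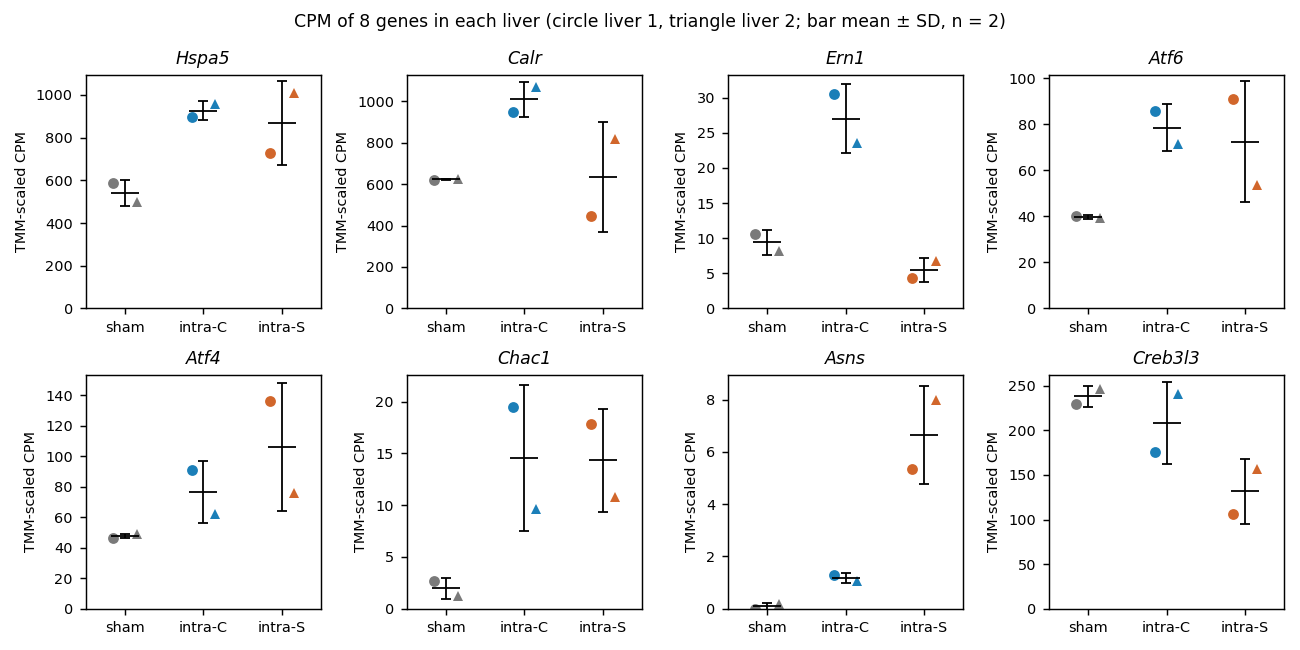
TMM-scaled CPM (y axis, from 0) of 8 genes in the 2 livers of each group (x axis), with the mean ± SD of the 2 livers. Ern1 is high in intra-C livers alone, Chac1 in both tumor groups and Asns most in intra-S livers, and the 2 intra-S livers of Calr lie on either side of the sham livers.

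None of the 8 degradation genes was called in any comparison by edgeR over all 6 livers or by DESeq2. The lowest adjusted p by edgeR was 0.345 in intra-C and 0.171 in intra-S livers, and none had an unadjusted p under 0.05 against sham. Their median log2 difference was 0.18 in intra-C and -0.09 in intra-S livers. Sel1l and Syvn1, which form the ligase that marks misfolded proteins, differed by 0.31 and 0.32 in intra-C and by -0.04 and -0.11 in intra-S livers. Edem1, which marks glycoproteins for disposal, measured 169 and 147 CPM in sham, 177 and 189 in intra-C and 112 and 143 in intra-S livers. Herpud1, an adaptor of the ligase, measured 573 and 327 CPM in sham, 401 and 401 in intra-C and 442 and 299.8 in intra-S livers, and sham liver 1 was the highest of all. Selenos, a selenoprotein of the same complex, stayed between 60.3 and 82.2 CPM in all livers.

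The derlins, which help pull proteins out of the ER, did not move as one. Derl1 differed by 0.15 and -0.07 on the log2 scale in the 2 tumor groups. Derl2 measured 88 and 90.6 CPM in sham, 78.5 and 61.4 in intra-C and 203 and 105 in intra-S livers, with intra-C livers below and intra-S livers above the sham livers. Derl3, which is scarce in liver, had 76 and 47 counts in sham, 58 and 66 in intra-C, and 2 and 38 in intra-S livers. Its intra-S log2 difference of -1.54 ± 0.99 (SE) did not pass the test, at an adjusted p of 0.345.

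None of the 10 translocon and export genes was called in any comparison by edgeR over all 6 livers or by DESeq2, and none had an unadjusted p under 0.05 by edgeR. The lowest adjusted p by edgeR was 0.257 in intra-C and 0.295 in intra-S livers, while in the fit of intra-C and sham livers alone Ssr3 passed, at an adjusted p of 0.0319. Their median log2 differences of 0.08 and 0.07 lay close to the 0.01 and 0.04 of all tested genes. The channel subunits Sec61a1, Sec61b and Sec61g differed in intra-C livers by 0.39, -0.38 and 0.20. Sec62 and Sec63, which assist entry after translation, differed by -0.06 and 0.13. Of the 4 subunits of the translocon-associated complex, Ssr3 had the largest difference, 0.51 ± 0.26 (SE), and measured 222 and 187 CPM in sham, 302 and 280.1 in intra-C and 198 and 304 in intra-S livers. The others, Ssr1, Ssr2 and Ssr4, differed by 0.02, -0.17 and 0.04. Sec24d, a cargo-binding subunit of the COPII coat, measured 43.4 and 39 CPM in sham, 52 and 53.7 in intra-C and 49.2 and 53.2 in intra-S livers. Its 4 livers of tumor-bearing mice all exceeded the sham livers, at log2 differences of 0.36 and 0.31. In intra-S livers the 10 genes ran from -0.35 for Sec61b to 0.31 for Sec24d.

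**Figure D4:**
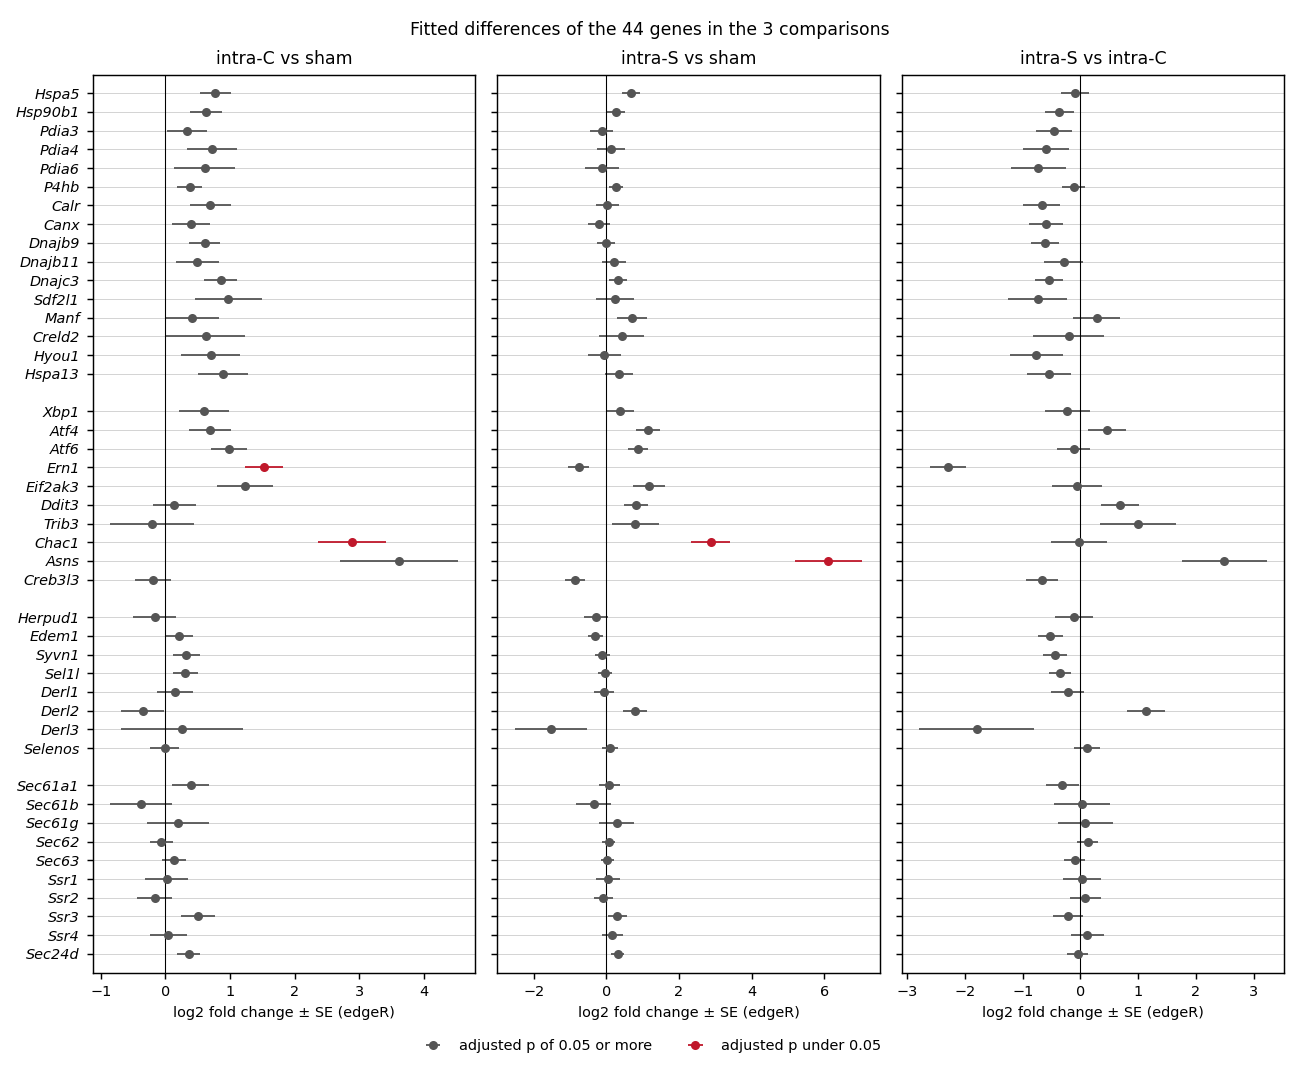
Fitted log2 fold changes (x axis) with their standard errors for the 44 genes, 1 row per gene and 1 panel per comparison, from 1 edgeR fit over 6 livers; red points passed at adjusted p under 0.05. The 4 red points are Ern1 and Chac1 in intra-C livers, and Chac1 and Asns in intra-S livers, and none is red in the direct comparison.

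Set directly against each other, intra-S and intra-C livers differed in none of the 44 genes by edgeR, which called 0% of all tested genes higher and 0% lower. Before adjustment, p was under 0.05 for 2 of the 44 that were higher and 4 that were lower, against 6.99% and 6.41% of all tested genes. DESeq2 called Ern1 lower and Asns higher, against 1.64% and 1.41% of all genes. Ern1 had the lowest unadjusted p, and its difference was -2.29 ± 0.31 (SE) on the log2 scale, with an adjusted p of 0.285 by edgeR and 5.44e-07 by DESeq2. Asns differed by 2.5 ± 0.74 (SE), with adjusted p of 0.301 and 0.00593. The others with an unadjusted p under 0.05 were Derl2 at 1.14, Dnajb9 at -0.62, Creb3l3 at -0.66 and Edem1 at -0.52. Of the 16 chaperones, 12 had both intra-S livers below both intra-C livers and 0 had both above. Over all tested genes these shares were 21.5% and 21.9%. Over the 44 genes, 18 were below and 4 above. In 4 of the 44, Ern1, Edem1, Derl2 and Sec62, the intra-C livers lay on one side of both sham livers and the intra-S livers on the other, against 3.68% of all tested genes. The median log2 difference of the chaperones was -0.55, against 0.03 for all genes. It was -0.11 without intra-S liver 1 and -1.03 without intra-S liver 2.

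The chaperones were higher in intra-S liver 2, while 6 of the 10 sensors and factors were higher in liver 1 and 4 in liver 2. All 16 chaperones and all 10 translocon and export genes were higher in liver 2 than in liver 1, where 51.3% of all tested genes were. Their median log2 differences between these livers were 0.98 and 0.75, or 1.97-fold and 1.69-fold, against 0.03 for all tested genes. The split was not confined to them: 21 of 23 cytosolic chaperones, 23 of 29 other ER folding genes, 29 of 38 other translocation genes and 26 of 36 transport genes were also higher in liver 2, with medians of 0.56, 0.54, 0.40 and 0.44. In these groups of the 44, the sham livers differed by -0.15 and -0.06, and the intra-C livers by 0.09 and -0.02. The largest gaps among the chaperones were Creld2 at 17.4 and 76.6 CPM, Sdf2l1 at 11.6 and 39.5 CPM and Pdia6 at 128 and 387 CPM in livers 1 and 2. The 9 genes of the 44 that were higher in liver 1 included Eif2ak3, Atf4, Ddit3, Trib3, Chac1 and Atf6. Derl2, Herpud1 and Syvn1 were also among them, whereas Asns was higher in liver 2. For some of these genes the order was not particular to intra-S livers. The log2 differences of liver 2 from liver 1 in sham, intra-C and intra-S livers were -1.01, -1.02 and -0.72 for Chac1. They were -0.37, -0.73 and -1.16 for Eif2ak3, and -0.45, -0.83 and -2.02 for Trib3. Atf4 came to 0.06, -0.55 and -0.83, and Ddit3 to -0.17, 0.06 and -0.88. With 1 liver on each side there is no test of this split. Other measures moved with it: mitochondrial transcripts took 5.62% of the counts in liver 1 and 3.02% in liver 2, against 5.34% to 5.60% in sham and 2.45% to 2.93% in intra-C livers. Of the 10 neutrophil markers 9 were higher in liver 1, all but Mpo, and of the 9 monocyte and macrophage markers 8 were higher in liver 2, all but Cd68. The plasma cell markers summed to 7.23 CPM in liver 1 and 16.2 CPM in liver 2. The endothelial markers summed to 334 and 199 CPM and the cholangiocyte markers to 23.6 and 185 CPM. Single genes made much of these gaps: Jchain at 3.21 and 13.4, Lyve1 at 112 and 14.2 and Spp1 at 19.6 and 180 CPM. Liver 2 was higher for 4 of 5 tested plasma cell, 2 of 6 endothelial and 3 of 5 cholangiocyte markers. The part of all these measures in the split was not tested.

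**Figure D5:**
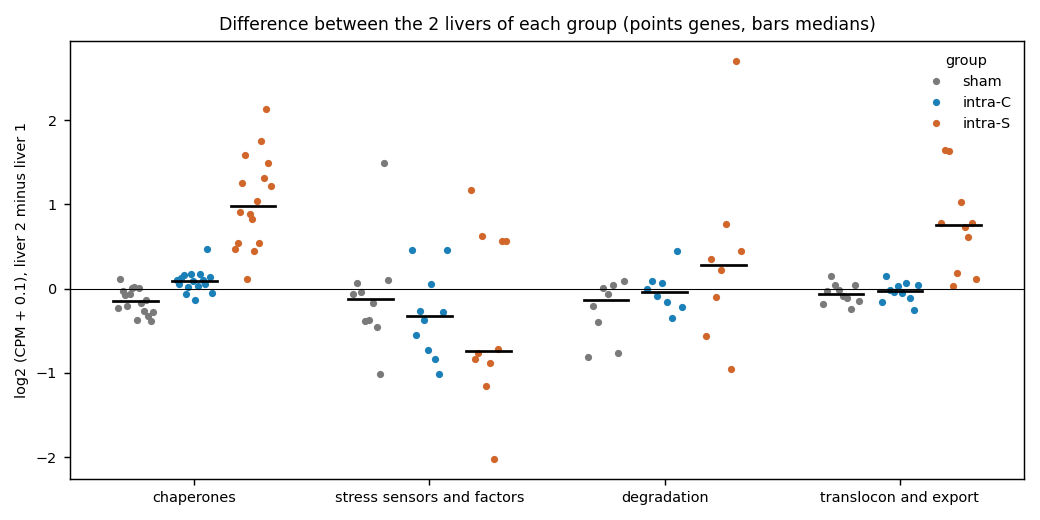
Difference between liver 2 and liver 1 of each group on the log2 (CPM + 0.1) scale (y axis) for the 44 genes by role (x axis); points are genes, bars are medians and colours are groups. The intra-S chaperones and translocon genes all lie above 0, with medians of 0.98 and 0.75, while sham and intra-C medians of both roles lie within 0.15 of 0.

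Genes of the same pathways outside the 44 are counted for each list in turn, with calls by edgeR unless DESeq2 is named. Over the whole table edgeR called 4.92% of tested genes higher and 2.38% lower in intra-C and 6.78% and 3.95% in intra-S livers. DESeq2 called more, 10.4% higher and 6.78% lower in intra-C and 12.6% and 8.95% in intra-S livers. Of 29 tested ER folding genes, Qsox1 was called by edgeR in both tumor groups, where DESeq2 called 2 and 5 higher. It encodes a secreted sulfhydryl oxidase, and it measured 209 and 215 CPM in sham, 751 and 716 in intra-C and 379 and 497 in intra-S livers. Its log2 fold changes were 1.79 ± 0.22 (SE) and 1.05 ± 0.22 (SE), at adjusted p of 0.0127 and 0.0351. Of 29 other genes of the PERK and Atf4 pathway, 0 were called by edgeR in intra-C livers and 3 higher in intra-S livers. DESeq2 called 3 higher and 1 lower in intra-C and 9 higher in intra-S livers. The 3 called by edgeR were Mthfd2, Psat1 and Phgdh, enzymes of serine and one-carbon synthesis that fell under the level set for naming and are named after their values were seen. Mthfd2 measured 0.246 and 0.475 CPM in sham, 1.17 and 1.45 in intra-C and 5.57 and 5.47 in intra-S livers, and so was, like Asns, nearly silent in sham livers. Psat1 and Phgdh reached 2.77 and 8.17 CPM and 1.43 and 7.56 CPM in the intra-S livers.

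Other stress genes of this pathway stood out in intra-S liver 1, as Trib3 and Ddit3 did, and are named here after their values were seen. Atf3, a stress-induced factor, measured 1.03 and 1.18 CPM in sham, 2.8 and 1.86 in intra-C and 52.2 and 1.5 in intra-S livers. Ppp1r15a, or GADD34, which restores translation after PERK acts, measured 7.17 and 4.75 CPM in sham, 17.5 and 8.72 in intra-C and 51.2 and 8.69 in intra-S livers. Neither was called by edgeR in either comparison with sham livers, and DESeq2 called both higher in intra-S livers. Of the 29 genes, 19 were higher in liver 1 and 10 in liver 2.

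Among genes for degradation, translocation and transport, calls were scattered. Of 24 other degradation genes, DESeq2 called 2 lower in intra-C livers and 1 higher and 3 lower in intra-S livers. By edgeR 0 were called in intra-C livers and 1 in intra-S livers, the membrane ligase Rnf5, which fell by 1.08 ± 0.22 (SE) on the log2 scale. Of 38 other genes for translocation, signal peptide cleavage and N-glycosylation, Ckap4 was called higher by edgeR in both, at 0.887 and 0.656, 4.25 and 4.98 and 6.88 and 4.29 CPM in the 3 groups; it lies under the naming level and was named after its values were seen. Of 36 transport genes, 0 were called by edgeR in intra-C livers, where DESeq2 called Sar1b lower. In intra-S livers 2 fell by edgeR, Sar1b, the COPII GTPase needed for lipoprotein export, by 0.89 ± 0.20 (SE), and Sec16b, which organises ER exit sites, by 1.06 ± 0.21 (SE). Kdelr3, a retrieval receptor near the detection limit, was the 1 called higher. None of 9 tested ATF6, OASIS and XBP1 regulators was called by edgeR, although without adjustment p was under 0.05 for 3 that were higher and 1 that was lower in intra-C livers, and for 2 and 1 in intra-S livers. Over all tested genes these shares were 15.2% and 11.8% in intra-C and 17.2% and 13% in intra-S livers. DESeq2 called 1 higher and 1 lower in each.

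Chaperones of other compartments were set beside those of the ER. Of 23 cytosolic chaperones, Hspb8 was called higher in intra-C livers, at 121 and 114 CPM in sham and 225 and 260.2 CPM in intra-C livers, and in intra-S livers edgeR called none and DESeq2 called Hspa1b lower. Their median log2 differences were 0.32 in intra-C and -0.35 in intra-S livers, beside the 0.63 and 0.22 of the ER chaperones. In the direct comparison 11 of the 23 were lower in intra-S livers at an unadjusted p under 0.05 by edgeR, against 6.41% of all tested genes. After adjustment edgeR called none and DESeq2 called 4 lower, Hsp90ab1, Hspa1b, Hspb1 and Hspb8, of which the first 3 were named after their values were seen. Of 8 mitochondrial chaperones and proteases, 7 had both livers below both sham livers in each tumor group, against 34% of all tested genes in intra-C and 30% in intra-S livers. Clpp fell in intra-C livers by 0.82 ± 0.18 (SE) and Trap1 in intra-S livers by 1.24 ± 0.26 (SE). The ER stress death list of 7 had 1 gene called by edgeR in both groups, Pmaip1 (NOXA), at 0.567 and 0.453, 2.04 and 1.83 and 4.67 and 3.88 CPM, which was named after its values were seen.

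Acute phase proteins, secreted proteins known to rise in inflammation, pass through this machinery. Of 25 acute phase proteins of the liver, 23 were called higher in intra-C and 22 in intra-S livers, where 1 was lower, by edgeR, with median log2 differences of 3.01 and 2.68. Their summed level was 28056 and 29239.6 TPM in sham, 193436 and 236214 TPM in intra-C, and 116548 and 188046 TPM in intra-S livers. The 8 hepatocyte markers, several of them secreted, had medians of 0.80 and 0.43, from -0.85 for Ttr to 1.02 for Trf in intra-C livers and from -0.13 for Ttr to 1.34 for Trf in intra-S livers. The 16 chaperones over the same livers spanned 2830.3 to 5749 TPM. For each TPM of chaperone message there were thus 6.70 and 7.31 TPM of acute phase message in sham livers. The ratio was 38.1 and 41.1 in intra-C livers, and 41.2 and 37.1 in intra-S livers, so that the 4 livers of tumor-bearing mice were alike in it although their chaperone sums were not. TPM values share a fixed total, so a rise of these abundant messages lowers the share left to all others.

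With 2 livers in a group, the smallest p that a permutation of labels allows is 0.333, and every call of the fit over all livers rests on the spread that the 6 share. Leaving out 1 sham liver or 1 intra-C liver left none of the 44 genes called against sham in either comparison. These fits called few genes of the whole table. Without sham liver 1 or 2 they called 0% higher and 0% lower in both comparisons. Without intra-C liver 1 they called 0.352% higher and 0.017% lower in intra-C and 2.13% and 0.954% in intra-S livers, and without intra-C liver 2 these shares were 0.323% and 0.0227%, and 1.97% and 0.817%. The fit of intra-S and sham livers alone called 0 of the 44, against 1.75% of all tested genes higher and 0.734% lower. With at least 10 counts in every liver, 1 of the 44 was called higher in intra-S livers, against 7.22% of all tested genes. Leaving out intra-S liver 1 or 2 gave 22 and 20 calls higher and 0 lower in intra-C livers, against 14.5% and 14.4% of all tested genes higher and 12% lower in both fits. Without liver 1 there were 12 calls higher and 0 lower in intra-S livers, against 9.58% and 6.93% of all tested genes. Without liver 2 there were 8 higher and 14 lower, against 17.3% and 15.4%. Creld2, Pdia4, Sdf2l1 and Sec61g were called higher without liver 1 and lower without liver 2. In the direct comparison there were 0 higher and 1 lower without liver 1, against 0.137% and 0.176%, and 3 higher and 22 lower without liver 2, against 7.53% and 9.02%. The library kit does not mark strand, and exons of 14 of the 44 genes overlapped another gene, by at most 12.8% of the gene's exon bases. Ern1, Chac1 and Asns were not among the 14.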

How the data were processed

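Total RNA of 6 mouse livers was sequenced from libraries of polyadenylated RNA. Reads were mapped by the authors to mm10 (HISAT2 2.1.0), uniquely mapped exon reads were counted (featureCounts, Subread 2.0.6), and the raw counts per gene were deposited. The authors also deposited TPM values, made from these counts by gene length, in which each liver sums to the same total. The annotation and the strand setting are not given in the sources used here.

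Everything else was computed here. The test was the quasi-likelihood test of edgeR 4.0.16 (R 4.3.3) on the counts, with TMM scaling, filterByExpr (minimum count 10), 1 fit over the 6 livers with a mean per group, and Benjamini-Hochberg adjustment over the 16370 tested genes. A gene was called at an adjusted p under 0.05. CPM are TMM-scaled. Standard errors follow from the fold change and its F statistic, and differences between 2 livers of a group use log2(CPM + 0.1). The whole procedure was first tested on simulated data. Alternatives were DESeq2 1.42.0, limma 3.58.1 on log2(TPM + 1) and log2(TPM + 0.1), other filters and scalings, a robust spread, the 2 groups compared alone, the replicate number as a block, and each liver left out.

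The 44 genes, the other gene lists and the marker lists were chosen with earlier results of these data known. Every one of the 44 genes is named. From each other list, up to 3 called genes per comparison with the largest change were named, if their mean was at least 5 CPM in the livers compared, and from each marker list the most abundant gene. Positions and promoters are from RefSeq (GRCm38.p6) and exon overlaps from GENCODE M21, also GRCm38. Protein sequences were not used here. The totals of 32838321 to 43368309 counts per liver set the counting precision, and limits from a count of 0 cover counting error only.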

Additional observations from a re-analysis of the deposited data

Results flagged for a closer look

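In 4 of the 44 genes the intra-C livers lay on one side of both sham livers and the intra-S livers on the other, as did 3.68% of all tested genes. The test of the difference is the direct comparison of intra-S with intra-C livers by edgeR, and it called none of them. Ern1 was higher in intra-C and lower in intra-S livers, and the log2 difference was -2.29 with an adjusted p of 0.285, which DESeq2 put at 5.44e-07. Edem1 showed the same order of groups, with a log2 difference of -0.52. Derl2 showed the opposite order, with a log2 difference of 1.14. Sec62 did so by 0.13 on the log2 scale. Groups of 2 livers are too small for a check of single outlying livers.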

How the results depend on the processing

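With 2 livers per group, 2 genes called higher in each tumor group is a count that moved with the settings. In intra-C livers it was 6 with DESeq2 and 22 with the 2 groups alone, fits that called 10.4% and 16.3% of all their tested genes higher. It was 1 each with library size in place of TMM, with limma on log2(TPM + 1) and with the replicate block. Of all 16370 tested genes these called 569, 497 and 673 higher, in that order, against 806 by the edgeR test used above. In intra-S livers it was 1 with at least 10 counts in every liver and 0 with the 2 groups alone, a fit that called 1.75% of all genes higher, and DESeq2 called 1 gene lower. In the direct comparison DESeq2 called 1 higher and 1 lower. Leaving out 1 liver in turn gave 0 to 22 calls higher in intra-C livers, 0 to 12 higher and 0 to 14 lower in intra-S livers, and 0 to 3 higher and 0 to 22 lower in the direct comparison, where the lone liver left in a group is assumed to vary like the other groups. Trib3 in intra-S livers turned from 0.79 to -0.56 without intra-S liver 1, in a range from -0.56 to 1.48 over the livers left out. Without intra-S liver 2, small positive differences turned negative and were called. Over the livers left out, intra-S log2 differences ran from -0.64 to 0.62 for Pdia4, -0.48 to 0.40 for Calr, -0.90 to 0.87 for Sdf2l1, -1.01 to 1.13 for Creld2, -0.77 to 0.88 for Sec61g and -0.56 to 0.47 for Ssr1, and in the direct comparison from -1.03 to 0.63 for Sec61b and -0.97 to 0.68 for Sec61g. The cause of these shifts was not tested.

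The replicate numbers are not said to pair the livers. The correlations of the deviations of same-numbered livers were -0.03, 0.08 and 0.04, which with 2 livers per group cannot settle the question. With the replicate block the SE of Chac1 went from 0.53 to 0.26 in both comparisons with sham livers. The replicate block took the Ern1 call in intra-C livers to an adjusted p of 0.0526 and changed no other call. Of 1446 fold changes of the 44 genes under settings that kept all livers, 29 gained and 6 lost a call and none reversed one, while 81 small differences changed sign without a call. Scaling by library size alone moved the median log2 difference of all genes to -0.25 in intra-C and -0.23 in intra-S livers, and on the log2(TPM + 1) scale to -0.10 and -0.15. Relative to these medians the intra-C chaperones stayed 0.62 and 0.53 higher.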
